A study of Homo sapiens with 6 samples.

Results

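The 9 genes described here encode proteins of extracellular microfibrils: the fibrillins FBN1 and FBN2, the latent TGF-beta binding proteins LTBP1, LTBP2, LTBP3 and LTBP4, the fibulins EFEMP1 (fibulin-3) and EFEMP2 (fibulin-4), and the microfibril-associated glycoprotein MFAP2. They were picked by gene symbol among the 60591 rows of the count table, and all 9 were among the 20676 genes that passed the expression filter. The family was listed with earlier results of the same libraries known, in which FBN1, FBN2 and LTBP1 differed between flow and static cells, so the values of the 9 genes across the conditions are a description. Where a member is said to pass, rise or fall, this gives its side of the threshold in the fit over all genes and is not independent evidence, since values of the same libraries led to the choice of the family. MDA-MB-231 is an established line of human triple-negative breast cancer, and its bone-homing variant was held in a 3-dimensional model without flow (static, 0 mL/min), under low flow at 1 mL/min or under high flow at 15 mL/min. RNA of 2 libraries per condition was sequenced. The labels place all libraries under the same experiment number and number them as replicates without saying that they were separate cultures. The spread given may therefore be technical and covers that experiment only. The labels give no duration of flow.

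Fibrillins polymerise into microfibrils, the thin fibrils on which elastin is laid down and to which growth factors of the TGF-beta and BMP families are tethered. LTBP1, LTBP3 and LTBP4 bind the latency-associated propeptide of TGF-beta and hold the inactive cytokine in the matrix, while LTBP2 does not carry latent TGF-beta and associates with fibrillin microfibrils. Bone matrix is rich in latent TGF-beta, which acts on breast cancer cells in bone metastases when it is released.

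Library totals ran from 17822642 to 53279537 counts, with both static libraries below both libraries of each flow condition. By the names of the columns, both high flow libraries come from a different sequencing lane than the other 4, so in comparisons with high flow the rate of flow and the lane cannot be told apart, and a within-lane value does not exist for them. The names of the high flow columns also differ in style, sample numbering and suffix, so the lane may not be the only difference. The labels call the cells endothelial, whereas the cell line is of breast carcinoma origin. Of 14 breast cancer markers listed, 11 reached 1 CPM (counts scaled to a common library size) in a library, among them KRT8, KRT18, VIM and CD44. The 14 summed to 6190 to 7870 CPM, most of it VIM at 3618 to 5031 CPM. Over the 6 libraries KRT7 averaged 3.68, EPCAM 3.35, ESR1 0.233 and CDH1 0.0328 CPM, and PGR was at 0 in all. Of 12 endothelial markers 5 reached 1 CPM in a library: TIE1, ESAM, ROBO4, PECAM1 and KDR. The defining markers CDH5 and CLDN5 averaged at most 0.0435 CPM in any condition. The summed level of all 12 was 107 to 135 CPM in static, 132 to 144 CPM in low flow and 148 to 150 CPM in high flow libraries. At an adjusted p under 0.05 for high flow against static, 2 were higher, PECAM1 and ROBO4, and 2 lower, KDR and ERG. Over all genes 7.49% were higher and 6.43% lower. KDR averaged 1.43 CPM in static and 0.558 CPM in high flow libraries. ERG averaged 0.383 and 0.0562 CPM, with at most 10 counts in a library. Fibroblasts make much of the body's fibrillin. Of 10 fibroblast markers, COL1A1 and PDGFRB reached 1 CPM, POSTN was at 0 in all libraries, and COL1A2 had counts in 1 library only, at 0.0234 CPM. The summed level of all 10 was 16.7 to 16.9 CPM in static, 23.2 to 27.3 CPM in low flow and 43.6 to 50.8 CPM in high flow libraries, most of it COL1A1. Without COL1A1 the summed level of the other 9 fibroblast markers was 3.96 to 5.18 CPM in static, 4.92 to 5.26 CPM in low flow and 5.61 to 5.80 CPM in high flow libraries. Of 7 osteoblast markers RUNX2 and BGLAP reached 1 CPM and IBSP was at 0 in all libraries, with sums of 66.0 to 68.3, 55.4 to 58.6 and 51.3 to 52.9 CPM in static, low flow and high flow libraries. The part of such cells in the values below was not tested. In bulk RNA such as this, fewer cells of a type and less RNA per cell cannot be told apart.

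The promoters of the 3 genes that were higher at both flow rates, FBN1, FBN2 and LTBP1, are shown as the 250 bases before the RefSeq start (build GRCh38.p14), 5′ to 3′ on the strand of the gene. Capitals mark matches, on either strand, to any of 5 short motifs. These were GGAATG for the TEAD factors and CAGAC for the SMAD proteins. For AP-1 the motif was TGANTCA, where N is any base. The GC box was searched as GGGCGG and the TATA box as TATAAA. The windows are chr15:48644971-48645220 (minus strand) for FBN1, chr5:128538246-128538495 (minus strand) for FBN2 and chr2:32946703-32946952 (plus strand) for LTBP1. Only 1 RefSeq start per gene was searched. The FBN1 and FBN2 windows lie inside the GENCODE 29 gene spans given below, whose 5′ ends are at 48645849 and 128659185.
FBN1: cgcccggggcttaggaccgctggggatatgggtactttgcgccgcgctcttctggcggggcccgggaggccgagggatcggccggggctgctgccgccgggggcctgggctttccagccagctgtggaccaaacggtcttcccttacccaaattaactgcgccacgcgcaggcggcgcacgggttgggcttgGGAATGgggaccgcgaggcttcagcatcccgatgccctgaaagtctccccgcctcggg
FBN2: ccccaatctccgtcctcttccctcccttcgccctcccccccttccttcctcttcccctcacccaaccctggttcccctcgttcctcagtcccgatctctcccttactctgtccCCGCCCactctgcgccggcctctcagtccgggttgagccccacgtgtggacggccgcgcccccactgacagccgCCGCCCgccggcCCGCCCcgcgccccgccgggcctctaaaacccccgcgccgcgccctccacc
LTBP1: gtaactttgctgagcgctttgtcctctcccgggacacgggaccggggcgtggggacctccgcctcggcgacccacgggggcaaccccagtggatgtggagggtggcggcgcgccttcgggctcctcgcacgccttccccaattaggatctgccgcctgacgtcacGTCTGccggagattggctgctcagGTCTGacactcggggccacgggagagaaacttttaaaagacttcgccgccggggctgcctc
The FBN1 window held 1 TEAD match, the FBN2 window 3 GC boxes and the LTBP1 window 2 SMAD matches. The GC content of the windows was 69.6% for FBN1, 72.8% for FBN2 and 66.4% for LTBP1, and it was as high in members that did not pass at both flow rates, at 68.8% for LTBP2, 70.4% for LTBP3 and 81.6% for EFEMP2. The windows of LTBP4 (45.2%) and MFAP2 (46.8%) lay below the median of 58.0% over all 35116 windows in the RefSeq table. Of the 8 members with an entry in that table, 2 held a TEAD match, 3 a SMAD match, 1 an AP-1 match, 5 a GC box and 0 a TATA box. Over all 35116 windows the shares were 11.9%, 38.0%, 6.57%, 42.6% and 10.7%. In the LTBP4 window the TEAD and SMAD matches overlapped by a base, and the MFAP2 window held both of the AP-1 matches found. A match describes letters in this window and is not shown to be a bound site.

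FBN2 differed most among the 9 genes. FBN2 encodes fibrillin-2, the fibrillin most prominent in embryonic microfibrils (chromosome 5, 128257909 to 128659185, minus strand, GRCh38 with GENCODE 29). Its libraries had 1.599 and 2.391 CPM in static, 9.18 and 6.25 CPM in low flow, and 7.16 and 6.46 CPM in high flow. Every flow library stood above both static libraries, and the 2 flow rates overlapped. The static values rest on 29 and 55 counts, against 418 and 301 counts in low flow and 306 and 344 counts in high flow libraries. The fitted fold was 3.80 for low flow against static (log2 fold change 1.93, SE 0.24) and 3.36 for high flow against static (log2 fold change 1.75, SE 0.24). FBN2 passed the threshold, an adjusted p of 0.05 in edgeR's quasi-likelihood test over all 20676 genes, in both of these comparisons. Across 14 alternative settings, all of them refits of the same 6 libraries or some of them, its log2 fold change ran from 1.63 to 2.27 for low flow and from 1.51 to 2.09 for high flow.

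FBN1 encodes fibrillin-1, the main structural protein of adult microfibrils and the gene mutated in Marfan syndrome (chromosome 15, 48408306 to 48645849, minus strand). Its libraries had 116.8 and 130.0 CPM in static, 159.1 and 178.5 CPM in low flow, and 157.4 and 155.1 CPM in high flow. All 4 flow libraries lay above both static libraries, and the high flow libraries lay below the low flow libraries. The fold was 1.37 for low flow (log2 fold change 0.45, SE 0.10) and 1.27 for high flow (log2 fold change 0.34, SE 0.10), and both passed. With offsets for transcript length and GC content, described below, the high flow value was 0.20 and did not pass. Counted per kilobase of transcript, FBN2 made up 1.43% and 1.91% of the summed fibrillin level in static, 5.74% and 3.57% in low flow, and 4.58% and 4.21% in high flow libraries. The FBN2 share was therefore higher in every flow library than in either static library, while FBN1 had 16.4 and 27.0 times the FBN2 level per kilobase in low flow and 20.8 and 22.8 times in high flow, against 69.2 and 51.5 times in static. FBN3, the remaining human fibrillin gene, had 1 count over all libraries, in a low flow library, and was not tested.

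**Figure D1:**
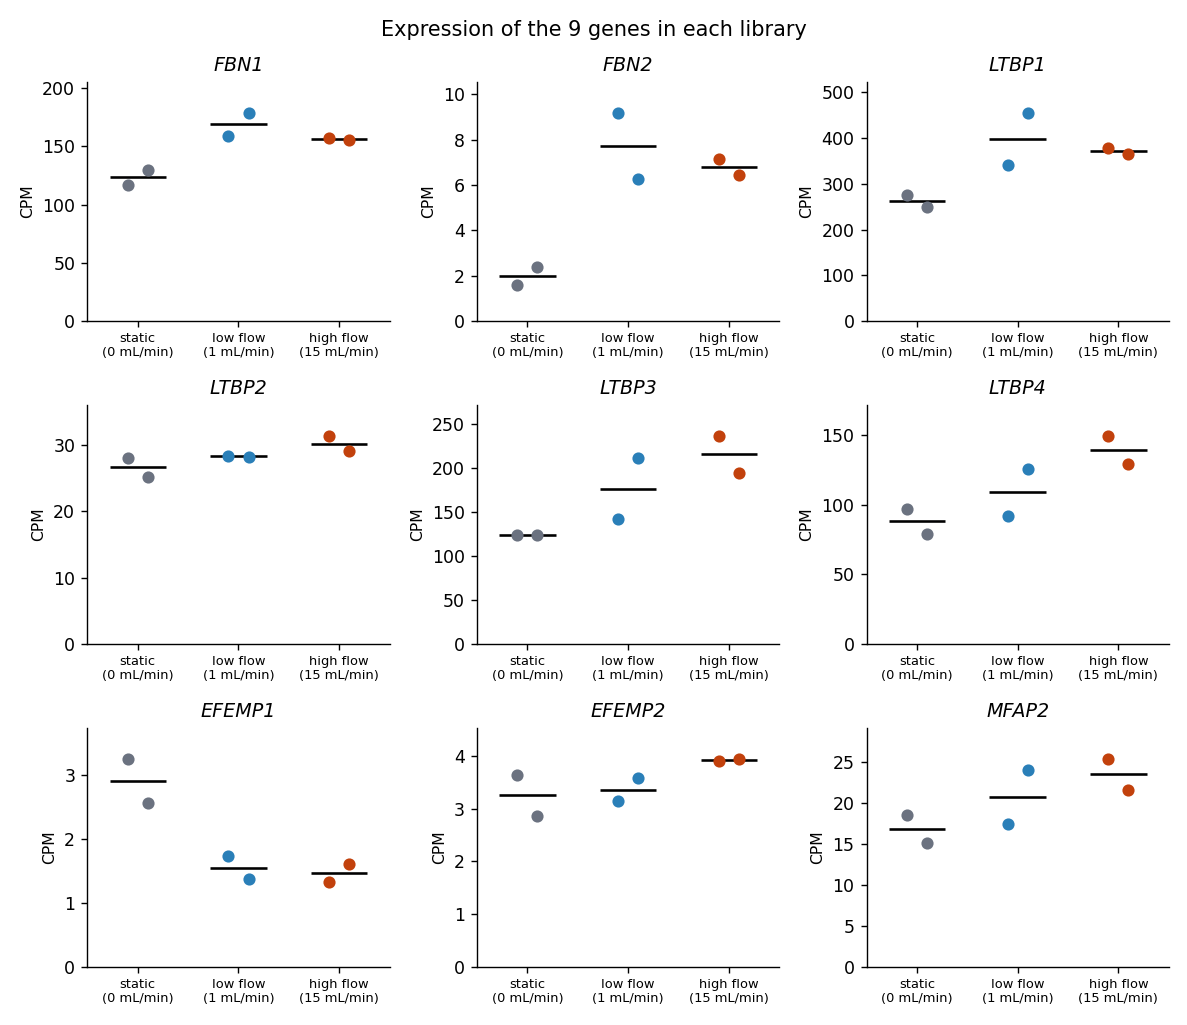
Expression of each of the 9 genes in CPM (vertical axes, starting at 0) in the 2 libraries of each condition (points) with their mean (line). FBN2 sits at 1.599 and 2.391 CPM in static and at 6.25 CPM or more in every flow library, and EFEMP1 is the gene whose flow libraries all lie below static.

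LTBP1 had the highest level of the latent TGF-beta binding proteins. It is the founding member of the family and covalently binds latent TGF-beta (chromosome 2, 32946972 to 33399509, plus strand). Its libraries had 276.2 and 249.7 CPM in static, 341.2 and 454.2 CPM in low flow, and 376.8 and 364.6 CPM in high flow. Flow and static libraries did not overlap, and the 2 low flow libraries lay farther apart than those of any other condition. The fold was 1.51 for low flow (log2 fold change 0.60, SE 0.12) and 1.41 for high flow (log2 fold change 0.50, SE 0.12), and both passed. With the offsets the high flow value was 0.33 and did not pass.

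LTBP3 and LTBP4 were higher under high flow. LTBP3, which binds latent TGF-beta and is known for its role in skeletal and dental development (chromosome 11, 65538805 to 65558930, minus strand), had 123.7 and 123.7 CPM in static, 142.0 and 211.2 CPM in low flow, and 236.7 and 194.4 CPM in high flow. Its high flow libraries stood above static by 1.74-fold (log2 fold change 0.80, SE 0.18), which passed; with length and GC offsets the value was 0.35 and did not pass. Under low flow the log2 fold change of LTBP3 was 0.51 with an SE of 0.18, which did not pass, and its 2 libraries differed more from each other than the first of them did from static. LTBP4, which binds latent TGF-beta and takes part in elastic fibre assembly (chromosome 19, 40592883 to 40629818, plus strand), had 97.1 and 78.9 CPM in static, 92.0 and 125.5 CPM in low flow, and 149.2 and 128.9 CPM in high flow. Low flow and static libraries of LTBP4 overlapped (log2 fold change 0.31, SE 0.16, not passing), while high flow stood 1.58-fold above static (log2 fold change 0.66, SE 0.16, passing). With the offsets the high flow value of LTBP4 was 0.22, which did not pass.

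LTBP2 varied least among the LTBP genes (chromosome 14, 74498170 to 74612378, minus strand). It had 28.1 and 25.1 CPM in static, 28.3 and 28.2 CPM in low flow, and 31.3 and 29.0 CPM in high flow libraries. Its log2 fold change against static was 0.09 (SE 0.11) under low flow and 0.18 (SE 0.11) under high flow, and neither passed. With length and GC offsets both values changed sign, to -0.07 and -0.14.

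Per kilobase, LTBP1 made up 46.4% and 45.9% of the summed level of the 4 LTBP genes in static, 50.2% and 48.6% in low flow, and 40.7% and 44.2% in high flow libraries. LTBP3 made up 29.6% and 32.4% in static, 29.8% and 32.2% in low flow, and 36.5% and 33.6% in high flow. The LTBP1 share was therefore highest under low flow, and the LTBP3 share was highest under high flow, where lane and the GC trend described below also differ. LTBP1 had the largest share in every condition. The shares rest on the longest transcript. With it LTBP3 averaged 38.7 CPM per kilobase and LTBP1 54.3, against 16.7 and 46.9 with all annotated exons. The summed level of the 4 genes was 501 ± 33.7 CPM in static, 711 ± 153 CPM in low flow and 756 ± 54.5 CPM in high flow (SD, n = 2). Set against the 3 TGF-beta ligand genes, TGFB1, TGFB2 and TGFB3, the summed level per kilobase of LTBP1, LTBP3 and LTBP4 was 1.496 and 1.305 times theirs in static, 1.535 and 2.074 times in low flow, and 1.596 and 1.765 times in high flow libraries.

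EFEMP1 was the member that fell. EFEMP1 encodes fibulin-3, a short fibulin of basement membranes and elastic tissue (chromosome 2, 55865967 to 55924139, minus strand). Its libraries had 3.25 and 2.56 CPM in static, 1.73 and 1.37 CPM in low flow, and 1.33 and 1.61 CPM in high flow. All flow libraries lay below both static libraries, and the 2 flow rates overlapped. The counts behind these values were 59 and 59 in static, 79 and 66 in low flow, and 57 and 86 in high flow libraries. EFEMP1 fell by 0.90 on the log2 scale (SE 0.26) under low flow, a 1.86-fold decrease, and by 0.97 (SE 0.26) under high flow, a 1.95-fold decrease. Both passed, but of the 14 alternative settings 5 kept the call under low flow and 9 under high flow.

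EFEMP2 encodes fibulin-4, which brings lysyl oxidase to tropoelastin (chromosome 11, 65866441 to 65873592, minus strand), and lies on the same chromosome as LTBP3. It had 3.64 and 2.87 CPM in static, 3.14 and 3.57 CPM in low flow, and 3.91 and 3.94 CPM in high flow. Low flow and static overlapped, high flow lay above static, and neither comparison passed (log2 fold change 0.05, SE 0.21, and 0.28, SE 0.21). The EFEMP2 level per kilobase of the longest transcript was 1.49 times that of EFEMP1 in both static libraries. It was 2.40 and 3.46 times in low flow, and 3.89 and 3.24 times in high flow. The ratio depends on the length used. EFEMP2 has 2277 bases in its longest transcript and 5397 in all annotated exons, against 3024 and 3962 for EFEMP1. Per kilobase of all annotated exons EFEMP2 lay below EFEMP1 in static, with 66 counts against 59 in each static library. MFAP2, also called MAGP-1, binds fibrillins and growth factors of the TGF-beta family (chromosome 1, 16974502 to 16980835, minus strand). It had 18.6 and 15.2 CPM in static, 17.45 and 23.98 CPM in low flow, and 25.4 and 21.6 CPM in high flow libraries. High flow lay above static (log2 fold change 0.48, SE 0.16) and low flow overlapped it (0.30, SE 0.16), and neither passed.

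**Figure D2:**
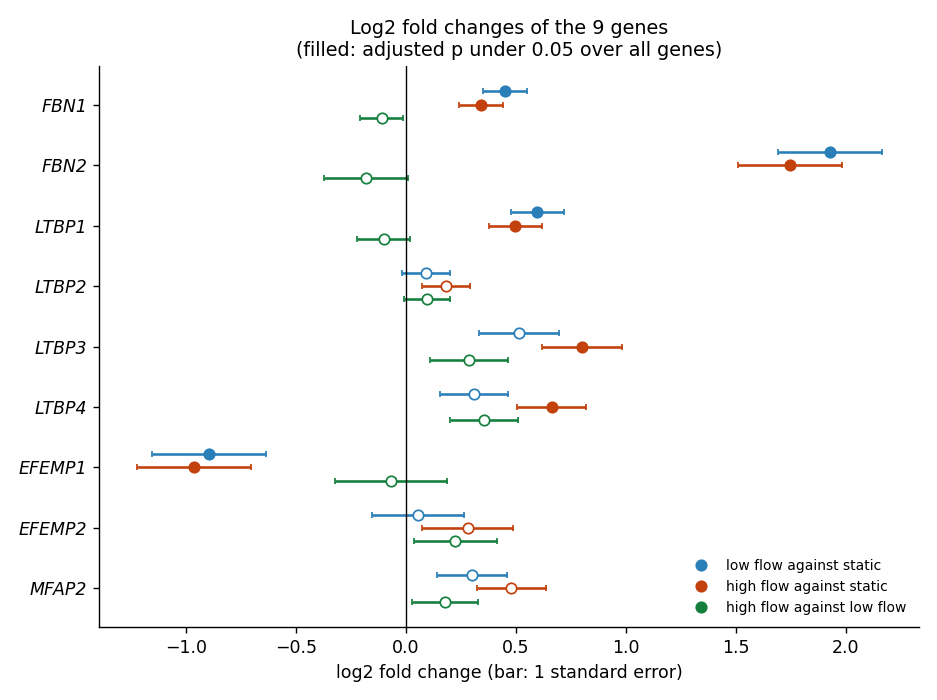
Log2 fold changes of the 9 genes (horizontal axis) in the 3 comparisons, with 1 SE as bars and filled points where the adjusted p over all genes was under 0.05. FBN2 lies at 1.93 and 1.75 against static, EFEMP1 at -0.90 and -0.97, and no point is filled for high flow against low flow.

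For low flow against static, FBN1, FBN2 and LTBP1 rose and EFEMP1 fell, 4 of 9 members, where 6.74% of all genes tested were called. Nothing is read from the difference between these shares, because FBN1, FBN2 and LTBP1 were known to differ in these libraries when the family was listed. The median log2 fold change of the 9 was 0.31, and that of all genes was 0.007. In 5 members the low flow libraries lay above both static libraries, as they did for 27.1% of all genes, and in 1 below, as for 26.3%. The count of calls depended on the libraries. Leaving out static replicate 1 gave 2 calls (FBN2 and LTBP1), and leaving out static replicate 2 or low flow replicate 2 gave 1 (FBN2). With low flow replicate 1 left out there were 7, all but LTBP2 and EFEMP2. FBN1, LTBP1, LTBP3, LTBP4, EFEMP2 and MFAP2 were each higher in low flow replicate 2 than in low flow replicate 1. FBN2 and EFEMP1 were lower, and LTBP2 was slightly lower, at 28.18 against 28.34 CPM.

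For high flow against static, FBN1, FBN2, LTBP1, LTBP3 and LTBP4 rose and EFEMP1 fell, 6 of 9 members, where 13.9% of all genes were called. The same 3 genes known to differ are among the 6, so nothing is read from this count either. The median log2 fold change of the 9 was 0.48, and that of all genes 0.002. In 8 members the high flow libraries lay above both static libraries, as for 29.9% of all genes, and in 1 below, as for 29.4%. Without static replicate 1 there were 3 calls (FBN2, LTBP1 and LTBP4), without high flow replicate 2 there were 3 (FBN2, LTBP3 and LTBP4), and without static replicate 2 or high flow replicate 1 there was 1 (FBN2). MFAP2 passed when either low flow library was left out of the shared fit. Both comparisons use the same 2 static libraries, so their values for a gene are not independent of each other.

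Between the flow rates, 0 of 9 members passed in edgeR's quasi-likelihood test, where 0.334% of all genes did (0.242% higher and 0.0919% lower under high flow). At an unadjusted p under 0.05 there was 1 member (LTBP4), and DESeq2 called 0. The log2 fold changes of high flow against low flow were 0.35 (SE 0.15) for LTBP4, 0.29 (SE 0.18) for LTBP3, 0.23 (SE 0.19) for EFEMP2, 0.18 (SE 0.15) for MFAP2 and 0.09 (SE 0.11) for LTBP2. They were -0.18 (SE 0.19) for FBN2, -0.11 (SE 0.10) for FBN1, -0.10 (SE 0.12) for LTBP1 and -0.07 (SE 0.25) for EFEMP1. Without low flow replicate 2, LTBP3 and LTBP4 both passed, at 0.60. The high flow libraries lay above both low flow libraries in 3 members (LTBP2, LTBP4 and EFEMP2), as for 21.2% of all genes, and below in 1 (FBN1), as for 21.5%. A value that did not pass is not shown to be equal at the 2 flow rates.

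Over all genes the log2 fold changes moved with the GC content of the transcripts, weakly for low flow against static. Across 20000 genes with an annotated transcript, the log2 fold change rose with GC content, with a Spearman rho of 0.0588 for low flow against static, 0.307 for high flow against static and 0.447 for high flow against low flow; these are correlations across genes, which are not independent replicates. The longest transcripts of the members run from 44.9% GC for EFEMP1 and 46.7% for FBN1 to 66.7% for LTBP4 and 67.8% for LTBP3. Between them lie FBN2 at 48.0%, LTBP1 at 51.7%, EFEMP2 at 54.9%, LTBP2 at 57.2% and MFAP2 at 59.9%. FBN2, with the largest fold against static, is thus among the members of low GC content. With offsets that take out each library's trend over transcript length and GC content, the log2 fold change of high flow against static was 0.35 for LTBP3, 0.22 for LTBP4, 0.33 for LTBP1 and 0.20 for FBN1, and none of these 4 passed. FBN2 (1.58) and EFEMP1 (-0.89) passed with the offsets. For low flow against static the offsets left all 4 calls in place, with log2 fold changes of 1.80 for FBN2, 0.50 for LTBP1, 0.32 for FBN1 and -0.87 for EFEMP1. Whether the trend is technical was not tested.

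**Figure D3:**
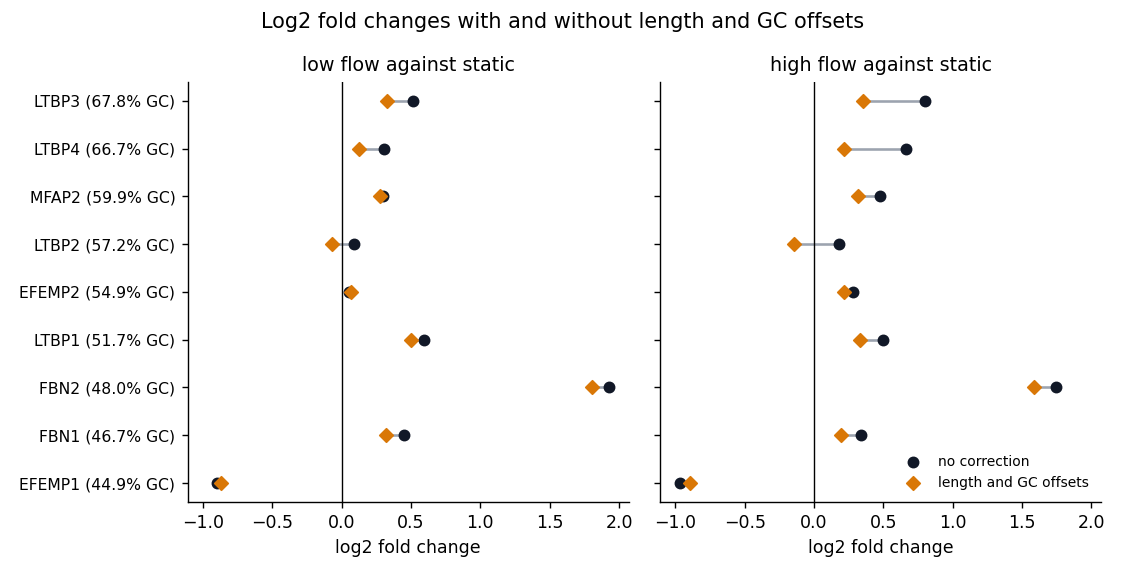
Log2 fold changes of the 9 genes against static (horizontal axes), without correction (circles) and with length and GC offsets (diamonds), with genes ordered by the GC content of the longest transcript. Under high flow LTBP3 moves to 0.35 with the offsets, against 0.80 without, FBN2 to 1.58 against 1.75, and EFEMP1 to -0.89 against -0.97.

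To compare levels between genes, CPM was divided by the length of the longest annotated transcript. LTBP1 was the most abundant member at 54.3 CPM per kilobase over the 6 libraries, above 94.5% of 20000 tested genes with an annotated length, counting itself. LTBP3 followed at 38.7, LTBP4 at 22.2, FBN1 at 12.7, MFAP2 at 8.58, LTBP2 at 3.31, EFEMP2 at 1.54, EFEMP1 at 0.654 and FBN2 at 0.495 CPM per kilobase. The order of the means was the same with the length of all annotated exons in place of the longest transcript. Per kilobase of the longest transcript, each gene from LTBP1 down to EFEMP1 was above the next in every library. With the length of all annotated exons EFEMP2 was below EFEMP1 in static. The lowest pair changed places: FBN2, at 0.144 and 0.215 CPM per kilobase, was below EFEMP1, at 1.08 and 0.848, in both static libraries, and above it in all 4 flow libraries. In low flow libraries FBN2 had 0.824 and 0.562 CPM per kilobase against 0.574 and 0.454 for EFEMP1, and in high flow libraries 0.643 and 0.580 against 0.441 and 0.534. The member with the largest fold against static, FBN2, was thus the least abundant of the 9 on average.

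**Figure D4:**
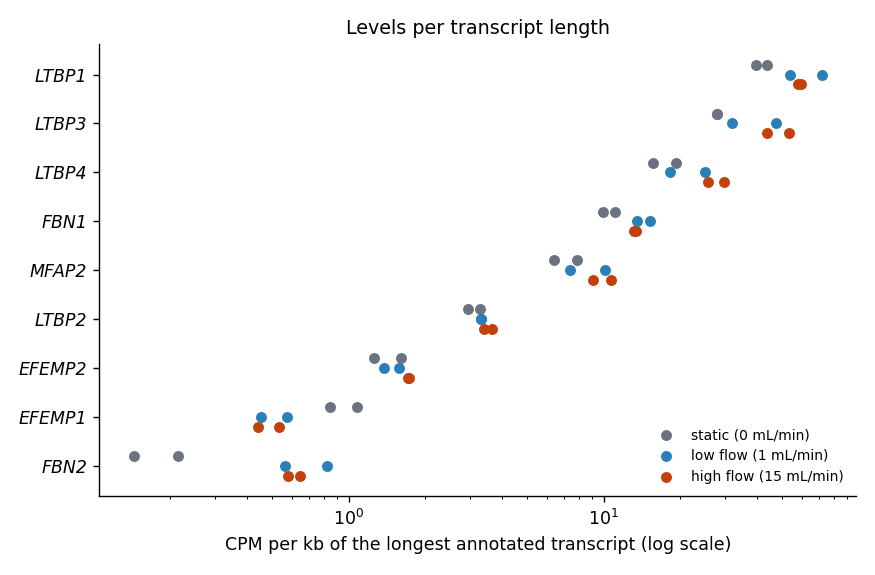
Level of each member in CPM per kilobase of its longest annotated transcript (horizontal log axis), with a point for each library coloured by condition. LTBP1 averages 54.3 and FBN2 0.495 over the 6 libraries, and FBN2 and EFEMP1 change places between static and flow libraries.

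No member overlaps the exons of another annotated gene on its own strand. On the opposite strand FBN2 shares 56 of its 13196 exon bases with SLC27A6, LTBP1 249 of 7329 with AC019127.1, LTBP2 207 of 9091 with AC013451.1 and EFEMP2 11 of 5397 with MUS81. The library kit keeps strand, but no source used here gives the strand setting of the counting, so reads from these short stretches cannot be assigned with certainty.

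The expression profiles of the members were compared with those of all 12666 other tested genes averaging at least 4 CPM, as the root mean square difference of log2 CPM over the 6 libraries after centring each gene on its mean. The profile nearest to FBN1 was that of HMCN1, which encodes hemicentin-1, a large protein related to the fibulins, at a difference of 0.019. It was followed by MAN1A1 and KCTD12, both at 0.031. LTBP1 was nearest to SCD, AC004805.1 and MAGED2 (0.050 to 0.051), and among members to FBN1 (0.13). FBN2 had no near neighbour by comparison: its nearest profiles were those of AC020916.1 (0.23), CYP1B1 (0.39) and the pseudogene FER1L4 (0.40). LTBP4 and MFAP2 were nearest to each other among members (0.086), and LTBP3 was nearest to LTBP4 (0.12). Over all candidates LTBP2 was nearest to COASY (0.015), LTBP3 to PLEKHG5 (0.029), LTBP4 to NLGN2 (0.037) and MFAP2 to WDR54 (0.029). With 6 libraries many genes have like profiles, and nearness is a description only.

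Other genes of the microfibril and latent TGF-beta pathway were taken from 5 lists. The lists were chosen with earlier results of these libraries known, so nothing is read from their counts of calls. They hold 79 genes, of which 60 were tested. Under low flow 11 of them rose and 0 fell, and under high flow 24 rose and 2 fell, where 3.25% and 3.49% of all genes rose and fell under low flow and 7.49% and 6.43% under high flow. Their median log2 fold changes were 0.24 and 0.33. Under low flow the count was 0 without static replicate 2, 2 without static replicate 1, 7 without either high flow library and 22 without low flow replicate 1. Under high flow it was 8 without static replicate 2, 7 without high flow replicate 1 and 17 without static replicate 1. Between the flow rates 2 rose under high flow, THBS1 and CCN2, with 0 without either static library or high flow replicate 1, 1 without high flow replicate 2, and 7 without either low flow library. FBN3, MFAP5, ELN, FN1 and TGFB2 fell outside the rule for naming genes and were chosen after their values were seen. All adjusted p-values below are from edgeR's quasi-likelihood test with Benjamini-Hochberg adjustment over all genes, without the length and GC offsets. With these offsets 16 of the 60 tested pathway genes rose and 2 fell under high flow. For the high flow values below, flow and lane cannot be told apart.

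Of 15 other microfibril and elastic fibre genes 8 were tested, and MFAP5, which encodes MAGP-2, was at 0 in all libraries. HMCN1 rose under low flow (1.40-fold, adjusted p = 0.0109) and under high flow (1.26-fold, adjusted p = 0.0324). ELN, the gene of tropoelastin, fell under high flow, with 0.23 and 0.49 CPM against 1.82 and 1.61 CPM in static (log2 fold change -2.20, SE 0.54, adjusted p = 0.0191). These values rest on few counts, 10 and 26 in high flow and 33 and 37 in static libraries. Under low flow ELN did not pass (log2 fold change -1.52, SE 0.51).

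Of 19 tested genes of fibrillin processing and assembly, 1 rose under low flow, and 5 rose and 1 fell under high flow. LOXL4, a lysyl oxidase family member, rose 2.56-fold under low flow (adjusted p = 0.0328) and 4.16-fold under high flow (adjusted p = 0.00348). FURIN, the convertase that trims profibrillin, rose 1.37-fold (adjusted p = 0.0208) under high flow, BMP1, a metalloprotease that cleaves LTBP1 and matrix precursors, 1.32-fold (adjusted p = 0.0152) and LOXL2 1.42-fold (adjusted p = 0.0178). TGM2, a transglutaminase that cross-links fibrillin and LTBP1, fell by 0.38 on the log2 scale under high flow (adjusted p = 0.0265).

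Of 10 tested binding partners 5 rose under low flow and 6 under high flow. FN1, the fibronectin on which fibrillin microfibrils assemble, had 1742 and 2794 CPM in low flow and 2648 and 2286 CPM in high flow, against 1233 and 1222 CPM in static (adjusted p = 0.0299 for low flow and 0.0109 for high flow). ITGA5, a subunit of the fibronectin receptor, rose 1.39-fold and 1.51-fold under low and high flow (adjusted p = 0.0329 and 0.00651), BMP2 1.56-fold and 1.88-fold (adjusted p = 0.0349 and 0.00383), and BMP4 1.38-fold and 1.56-fold (adjusted p = 0.0228 and 0.00194). HSPG2, which encodes perlecan, rose under high flow (1.57-fold, adjusted p = 0.000857), and the syndecan SDC2 rose under low flow (1.37-fold, adjusted p = 0.0193).

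Among 13 tested genes of the latent complex and its activation, TGFB1 rose under high flow (1.39-fold, adjusted p = 0.00896), and TGFB2 did not pass, at 24.8 and 25.1 CPM in high flow against 33.9 and 42.6 CPM in static. THBS1, whose product thrombospondin 1 can activate latent TGF-beta, rose 2.31-fold under high flow (adjusted p = 0.000119) and was 1.73-fold higher under high flow than under low flow (adjusted p = 0.0169). ITGB5 rose 1.30-fold under low and 1.39-fold under high flow (adjusted p = 0.0458 and 0.00947). Of 10 TGF-beta response genes 3 rose under low flow and 9 under high flow, where 3.25% and 7.49% of all genes rose. Nothing is read from these counts, because the list was chosen with earlier results of these libraries known. The largest folds were those of SMAD7, the inhibitory SMAD, at 1.94-fold and 3.34-fold (adjusted p = 0.0287 and 0.00209). TGFBI rose 1.37-fold and 1.55-fold (adjusted p = 0.0273 and 0.00264), while KLF10 (1.74-fold, adjusted p = 0.000381), CCN2 (2.09-fold, adjusted p = 0.000399) and BAMBI (1.71-fold, adjusted p = 0.0022) passed under high flow. CCN2 also differed between the flow rates, at 568 and 509 CPM in high flow against 315 and 226 CPM in low flow (adjusted p = 0.00444).

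**Figure D5:**
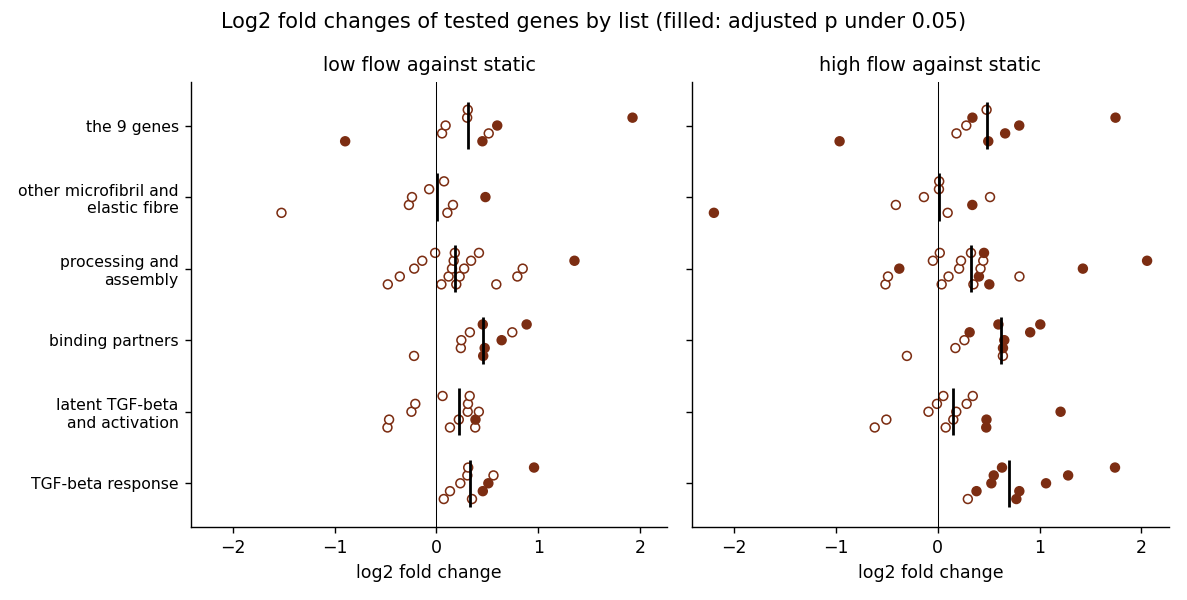
Log2 fold changes against static (horizontal axes) of the tested genes in the 9-gene family and the 5 pathway lists, with medians as vertical lines and filled points where the adjusted p over all genes was under 0.05. Of the TGF-beta response genes 9 of 10 are filled under high flow and 3 under low flow, all of them higher. Over all genes 7.49% and 3.25% rose, and the list was chosen with earlier results of these libraries known.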

How the data were processed

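The data are read counts from 6 RNA libraries. Libraries came from TRIzol lysates and a stranded KAPA kit for mRNA, per the labels' protocols. The authors deposited raw counts per gene, and processing tools listed by the submitters are STAR and featureCounts with build hg38; no source used here gives their versions, settings or gene annotation. Columns were assigned by the names that the labels quote.

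All 6 libraries entered 1 model in edgeR 4.0.16 (R 4.3.3) with TMM normalization, robust dispersions, the default expression filter at a minimum count of 10 and 3 residual degrees of freedom. Its two-sided quasi-likelihood test was adjusted by Benjamini-Hochberg over 20676 genes in each comparison, with a threshold of 0.05. The SE of a log2 fold change was derived from that test. A gene at 0 counts may lie as high as 0.0563 to 0.165 CPM, depending on the library (3 counts, counting error only). Replicates were not copies of each other, with a chi-square per degree of freedom of 12.1 to 29.8 within conditions. Gene positions, lengths and GC contents are from GENCODE 29 on GRCh38, where 55101 rows matched by symbol and 1346 through a newer symbol. Promoters are from RefSeq, with 8 of 9 members matched.

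The 9 members and all lists were chosen with earlier results of these data known. Named were all members, at most 5 passing genes of each pathway list with a mean of at least 4 CPM, by smallest p, and the 3 nearest profiles of each member of at least 4 CPM. Simulated data of 20676 genes, 200 of them changed, were put through the fit for each comparison. Unchanged genes called were 16 for low flow against static, 30 for high flow against static and 16 for high flow against low flow. In the same order, 47, 39 and 48 of 67 genes changed 1.5-fold were found. At 2-fold it was 55, 59 and 58 of 67, and at 3-fold 65, 64 and 65 of 66. In each comparison unchanged genes were more than 0.05 of the calls, so the simulation did not hold the threshold. Alternatives were RLE normalization, no expression filter, a mean of at least 1 CPM, a fit of the 4 libraries compared, DESeq2 1.42.0, the replicate number as a block, length and GC offsets (a loess trend per library), the block with the offsets, and leaving out each library.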

Additional observations from a re-analysis of the deposited data

How the results depend on the processing

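Of the 27 member values (9 genes in 3 comparisons), 10 passed, and none of these 10 changed sign under any of the 14 alternatives, while 8 of the 17 that did not pass changed sign in at least 1. Leaving out each library in turn gave 1 to 7 members called for low flow against static (4 with all libraries), 1 to 7 for high flow against static (6) and 0 to 2 for high flow against low flow (0). With length and GC offsets 2 members passed for high flow against static. The numbers of the replicates pair no samples by the labels, and the deviations of same-numbered libraries correlated at -0.144, -0.0514 and 0.138. With the replicate block and the offsets together, 2 members passed for low flow against static and 1 for high flow against static; with the block alone 3 and 6 passed.

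Of the pathway genes, 11, 26 and 2 passed for low flow against static, high flow against static and high flow against low flow. Leaving out each library gave 0 to 22, 7 to 33 and 0 to 7. For low flow against static, 24 passed with no expression filter, 6 with only the 4 libraries compared, 17 with DESeq2, 6 with the replicate block and 6 with the block and the offsets. For high flow against static, 18 passed with the offsets and 14 with the block and the offsets. For high flow against low flow, 7 passed with no filter, 0 with only the 4 libraries compared and 4 with DESeq2. Over all genes, the offsets gave 884 higher and 1170 lower for high flow against static, against 1549 and 1329 without them. The block gave 411 higher and 496 lower for low flow against static, against 672 and 722 without it, and without static replicate 2 there were 44 and 51. The causes were not tested. Counts per library ran from 29 to 418 for FBN2, from 57 to 86 for EFEMP1 and from 66 to 210 for EFEMP2, which limits their precision.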
